A study of Mus musculus with 2 samples.

Results

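The transcripts described here are those of a pooled list of mouse embryonic stem cell RNAs whose names start with FT and that have more than 1 exon. Neighbouring blocks of a transcript were first joined into 1 exon where the gap between them was under 30 bp. Of the 110003 transcripts in the list, 11825 carry an FT name, and 5113 of these (43.2%, 4.65% of the list) were spliced. FT is a prefix whose meaning was not given in any source used. The other name prefixes are U, BROAD and WHITEHEAD, and the 16725 spliced U transcripts served as the main comparison.

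The list belongs to a study of the mouse embryonic stem cell line V6.5, cultured with a feeder layer of irradiated fibroblasts. It made 2 strand-specific libraries, 1 of polyadenylated RNA and 1 of RNA without ribosomal RNA. The labels name no mutation or treatment, and the list gives position, strand and blocks on mm9 and no count per library, so depth is unknown, the libraries were not compared, and RNA of feeder and stem cells cannot be told apart. Whether an FT transcript was present in these cells is not recorded in the list. Intervals and p-values below describe features of 1 list and carry no error between cultures.

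Long noncoding RNAs are transcripts without a long reading frame, many of them spliced and polyadenylated like messenger RNAs. Many promoters of protein-coding genes fire in both directions, and the transcript that runs away from the gene is called divergent. A noncoding gene that overlaps a coding gene on the other strand is called antisense. Promoters rich in CpG, a cytosine followed by a guanine, are common at broadly active coding genes and are often bidirectional.

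The sequences that carry the results are the starts and the 3′ ends of the genes to which these transcripts were matched, because they show what divergent starts share and how the transcripts end. The file itself has no sequence and no gene names. Names came from matching exon and intron lengths to the mouse GENCODE annotation, and promoter windows are from RefSeq on GRCm38.p6. Each window holds 250 bases before and 50 bases after the annotated start, which is base 251, written 5′ to 3′ on the strand of the gene with every CpG in capitals. The first 3 are starts divergent from Wnt7b, Sall4 and Pax6, and hold 49, 27 and 13 CpG. They were picked with these counts known as examples of the CpG-rich kind. Divergent windows of 1110019D14Rik and Gm32511, not printed, held 11 and 9 CpG and were not of that kind (ratios of observed to expected CpG of 0.53 and 0.44).
AU022754, chr15:85580892-85581191, plus strand: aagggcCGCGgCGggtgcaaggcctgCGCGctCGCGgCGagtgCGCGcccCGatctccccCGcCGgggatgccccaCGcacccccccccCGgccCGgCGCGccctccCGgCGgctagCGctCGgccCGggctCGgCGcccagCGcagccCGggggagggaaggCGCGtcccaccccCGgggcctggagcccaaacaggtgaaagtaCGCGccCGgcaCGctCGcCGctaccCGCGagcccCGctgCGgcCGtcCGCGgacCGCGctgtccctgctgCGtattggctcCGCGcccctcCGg
Gm14261, chr2:168765893-168766192, plus strand: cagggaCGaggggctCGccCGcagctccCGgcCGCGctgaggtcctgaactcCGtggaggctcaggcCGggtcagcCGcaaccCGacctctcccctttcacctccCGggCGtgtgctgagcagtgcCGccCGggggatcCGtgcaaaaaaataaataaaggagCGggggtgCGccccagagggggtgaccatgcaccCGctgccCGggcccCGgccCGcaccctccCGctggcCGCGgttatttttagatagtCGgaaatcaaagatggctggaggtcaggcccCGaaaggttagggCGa
Pax6os1, chr2:105670281-105670580, minus strand: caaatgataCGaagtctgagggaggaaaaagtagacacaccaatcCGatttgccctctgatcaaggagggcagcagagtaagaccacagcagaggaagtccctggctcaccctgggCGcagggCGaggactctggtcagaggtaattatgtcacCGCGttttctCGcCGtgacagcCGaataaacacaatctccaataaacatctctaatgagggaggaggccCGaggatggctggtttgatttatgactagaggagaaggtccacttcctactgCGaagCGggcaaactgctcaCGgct

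Windows of 3 genes apart from any coding gene, chosen for their many exons, held 1, 1 and 8 CpG.
Gm38407, chr12:10446138-10446437, plus strand: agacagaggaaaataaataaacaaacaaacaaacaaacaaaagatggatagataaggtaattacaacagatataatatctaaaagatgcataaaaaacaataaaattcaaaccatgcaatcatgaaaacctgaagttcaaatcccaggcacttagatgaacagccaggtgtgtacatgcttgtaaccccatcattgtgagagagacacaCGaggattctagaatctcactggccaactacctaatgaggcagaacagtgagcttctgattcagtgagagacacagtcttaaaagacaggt
4921515E04Rik, chr15:18369578-18369877, minus strand: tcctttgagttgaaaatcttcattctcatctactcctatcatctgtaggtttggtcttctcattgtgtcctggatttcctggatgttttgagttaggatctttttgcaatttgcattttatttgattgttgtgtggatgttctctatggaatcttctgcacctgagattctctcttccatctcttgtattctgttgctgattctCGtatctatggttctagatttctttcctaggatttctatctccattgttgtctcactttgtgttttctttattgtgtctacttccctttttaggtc
Gm38413, chr5:99753924-99754223, minus strand: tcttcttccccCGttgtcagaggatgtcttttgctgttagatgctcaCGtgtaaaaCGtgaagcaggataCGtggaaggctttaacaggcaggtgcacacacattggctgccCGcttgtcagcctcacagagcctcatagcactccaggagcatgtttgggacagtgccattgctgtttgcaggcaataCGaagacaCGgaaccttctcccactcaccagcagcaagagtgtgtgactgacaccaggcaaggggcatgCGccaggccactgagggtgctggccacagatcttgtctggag

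The last 40 nt of annotated transcripts with the same structure and the same 3′ end as an FT transcript mostly held a polyadenylation signal, shown in capitals (AATAAA, or its common variant ATTAAA in Fendrr). The 6 shown are from noncoding genes named below, and the end of Evx1os held neither form.
Hotair: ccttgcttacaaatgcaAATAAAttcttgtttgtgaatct
Airn: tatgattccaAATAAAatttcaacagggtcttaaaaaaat
Pvt1: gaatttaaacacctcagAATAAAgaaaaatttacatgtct
Fendrr: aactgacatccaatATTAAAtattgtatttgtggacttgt
Lhx1os: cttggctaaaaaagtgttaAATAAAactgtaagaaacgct
Evx1os: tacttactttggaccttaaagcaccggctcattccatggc

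Most spliced FT transcripts had few exons. Of the 5113, 2264 (44.3%) had 2 exons, 1343 (26.3%) had 3 and 783 (15.3%) had 4. At least 6 exons were present in 369 (7.22%, Wilson 95% interval 6.54 to 7.96%) and 10 or more in 22. The share with at least 3 exons was 55.7% (54.4 to 57.1%), against 48.2% (47.5 to 49.0%) of spliced U transcripts. These shares count transcripts, and transcripts of a locus share exons, so the difference was not tested. With the longest transcript of each locus the FT share was 54.2%, and the U share was not counted in this way.

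**Figure D1:**
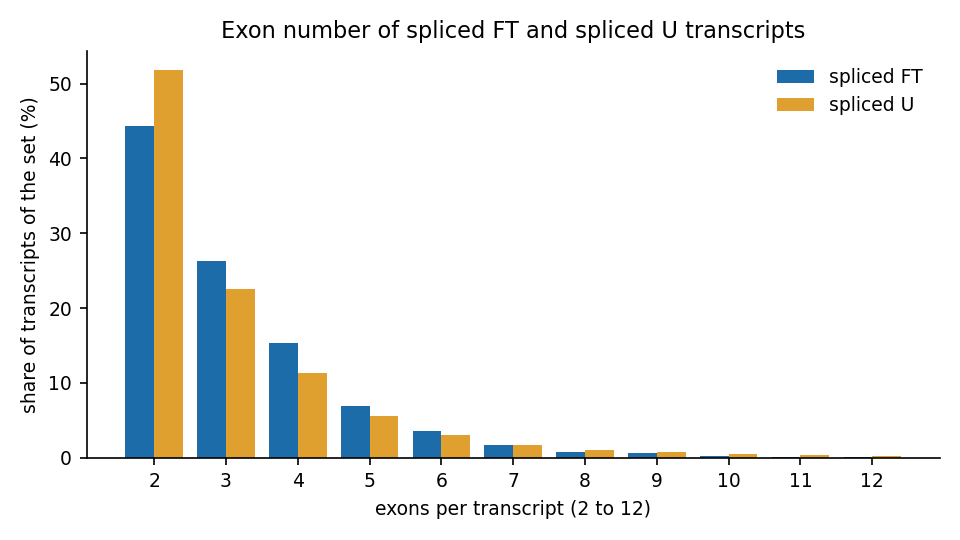
Share of transcripts (%) with 2 to 12 exons among the 5113 spliced FT (blue) and 16725 spliced U transcripts (orange). Transcripts of 2 exons make up 44.3% of the FT set, and the FT bars are taller than the U bars at 3 and 4 exons.

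The summed exon length of a spliced FT transcript had a median of 1273 nt (quartiles 767 and 2090 nt), against 731 nt (470 and 1404 nt) for spliced U transcripts, 355 nt for BROAD and 744 nt for WHITEHEAD. Much of the length lay in the last exon, with a median of 710 nt (335 and 1421 nt) beside 164 nt for the first exon and 125 nt (88 and 180 nt) for internal exons. In U transcripts the last exon had a median of 335 nt and the first 151 nt, so the sets differed more at the 3′ exon than at the 5′ exon. Only 9 members (0.176%) were shorter than 200 nt, and the shortest had 34 nt.

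Introns were long. Their median was 2424 bp (quartiles 743 and 7701 bp), against 1320 bp (344 and 4662 bp) in U transcripts. The first intron, with a median of 2430 bp, was about as long as the later ones, at 2419 bp. The genomic span had a median of 7620 bp (3417 and 20417 bp), and 208 members (4.07%) spanned over 100 kb. No test was made of these lengths, since transcripts of a locus share exons.

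Internal exons less often kept the reading frame than those of coding genes. Of 5150 distinct internal exons 33.0% (31.7 to 34.2%) had a length divisible by 3, against 40.4% (40.2 to 40.6%) of 180109 distinct internal exons of annotated protein-coding transcripts. The members were spread over both strands, with 2606 (51%, 49.6 to 52.3%) on the plus strand.

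The score column of the list held even whole numbers from 920 to 1000 for these transcripts, and 3341 (65.3%) scored 1000. What it measures was not given in any source used. Blocks closer than 30 bp occurred in 1667 members (32.6%), and of their 3751 gaps 2229 (59.4%) were 0 bp long and 1396 (37.2%) were 1 to 5 bp. A score of 1000 was held by 39.5% (37.2 to 41.8%) of members with such a gap and by 77.9% (76.4 to 79.2%) of those without. The alignment of the underlying sequences was not examined.

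The members formed 4178 loci, a locus being the spliced FT transcripts of 1 strand whose spans overlap. A single member made up 3505 loci (83.9%), and 673 held 2 or more. In 151 of those 673 (22.4%, 19.4 to 25.7%) all members had the same introns. Members differed by separate last exons in 355 loci (52.7%, 49.0 to 56.5%), by alternative acceptor sites in 263 (39.1%), by separate first exons in 226 (33.6%) and by alternative donor sites in 221 (32.8%). Cassette exons, skipped in 1 member and included in another, were present in 73 loci (10.8%), and a retained intron in 68 (10.1%). In 218 loci (32.4%) no pair of members shared an intron, so transcripts of 1 locus need not belong to 1 gene.

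The locus with the most members lay on chromosome 2 (mm9 113839299 to 113894060, plus strand), where 12 transcripts with 8 intron chains were matched to A530058N18Rik and C130080G10Rik. A further locus on chromosome 2 (119420032 to 119429635), matched to 1700020I14Rik, had 9 members and 2 intron chains that differed at a donor site. At 5530601H04Rik on the X chromosome (102232536 to 102265463) the 9 members had 7 chains, with cassette exons and separate first and last exons. 9530026P05Rik on chromosome 6 (92890327 to 93414055) had 7 members, each with its own chain and up to 10 exons.

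Dleu2, a noncoding gene on chromosome 14 (62221676 to 62301199, minus strand) that hosts the miR-15 and miR-16 cluster, showed the patterns together. Of the 9 members of its locus, 8 were matched to Dleu2, and FT319236, with 2 exons, was not. Among the 9, 7 started within 200 bp of each other. Their starts lay at 0 bp (FT334363), 34 bp (FT327444), 37 bp (FT319059 and FT33071), 48 bp (FT310119), 146 bp (FT319236) and 186 bp (FT318183) from the outermost 5′ end. FT37498 and FT311739 started 33549 and 33740 bp downstream and had 3 exons, the last of which ran through an intron of the longer members. The ends of 4 members lay 78995 to 79523 bp downstream, and the others ended at 6349, 50013, 50063, 53758 and 62889 bp. The starts thus fell into 2 groups and the ends were spread over the locus. The intron chains of 6 of the 9 were also present in U transcripts.

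**Figure D2:**
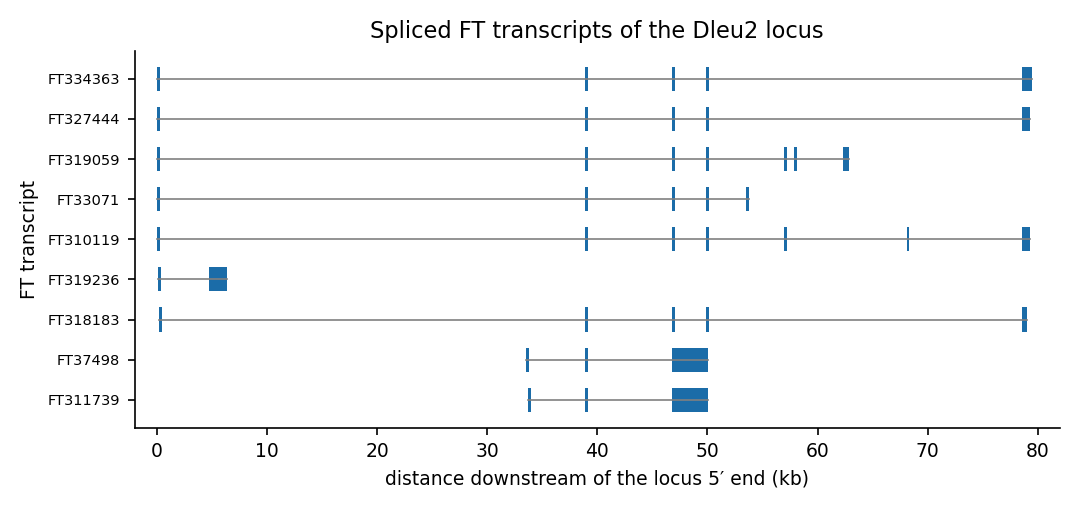
Exons (boxes, drawn at least 0.25 kb wide) and introns (lines) of the 9 spliced FT transcripts of the Dleu2 locus against distance from its outermost 5′ end in kb. Of the transcripts, 7 start within 186 bp of that end, and FT37498 and FT311739 start 33549 and 33740 bp downstream.

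Exon number was highest in Platr21 on the X chromosome (135774765 to 135891309), where FT38167 had 20 exons in 3511 nt. Gm6639 on chromosome 3 (35496074 to 35565085) had 16 exons and 4930402D18Rik on chromosome 15 (60744529 to 60803905) had 14. Gm38407, 4921515E04Rik, 4930414F18Rik and Gm38413 had 12 each, and Gm11820 had 11. Of these loci, Gm38407 and Gm11820 had a member whose whole intron chain was also present in U transcripts.

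Exon number varied among the transcripts with the longest spans. An unnamed transcript on chromosome 16 (61792794 to 62498146) covered 705353 bp with 3 exons and 1093 nt of exon. Gm32647 on chromosome 7 spanned 666420 bp, and a transcript of 3 exons matched to the cadherin gene Pcdh15 on chromosome 10 spanned 617161 bp. Gm14643 on the X chromosome spanned 605062 bp with 8 exons, and 5730522E02Rik on chromosome 11 spanned 591486 bp with 7.

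Most introns of these transcripts recur under other names of the list, mainly U. Of 9884 distinct introns 8006 were also in U transcripts (81.0%, 80.2 to 81.8%), 568 in BROAD (5.75%, 5.30 to 6.22%) and 295 in WHITEHEAD transcripts (2.98%, 2.67 to 3.34%). On the opposite strand the numbers of equal positions were 12, 1 and 0. Seen from the other side, the shared introns were 25.6% of the introns of U, 8.04% of those of BROAD and 11.8% of those of WHITEHEAD. No other prefix held 1807 introns (18.3%). For 768 members (15.0%) no intron recurred, and for 3627 (70.9%) every intron did.

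A U transcript with exactly the same introns existed for 3215 members (62.9%, 61.5 to 64.2%). The nearest such U transcript started at the same base in 2471 of these (76.9%) and ended at the same base in 1950 (60.7%), and both ends were equal in 1602 (49.8%, 48.1 to 51.6%). FT and U transcripts therefore cannot be counted as independent observations of a gene.

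Spliced FT transcripts matched annotated genes more often than the list as a whole. Of the 2849 members with at least 3 exons, 2513 (88.2%, 87.0 to 89.3%) shared a run of intron, exon and intron lengths with a single annotated gene, against 57.4% of all such transcripts of the list and 61.9% (60.8 to 63.0%) of those with U names. With the annotation of the other strand 2 members matched (0.0702%). For 2-exon members the intron length had to be equal and both exons had to agree within 20 nt, which named 1345 of 2264 (59.4%) against 6 on the other strand. By either rule 3858 members (75.5%) were named, as 3253 genes. Of the 1255 without a name, 462 (36.8%) shared no intron with another prefix.

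The whole intron chain of an annotated transcript was present in 2317 members with at least 3 exons (81.3%, 79.9 to 82.7%), in 41.8% (40.7 to 42.8%) of U, 5.87% of BROAD and 5.63% of WHITEHEAD transcripts. Where the chain was equal, 83.4% of FT transcripts (81.8 to 84.8%) had the annotated first exon length to the base and 76.0% (74.3 to 77.7%) the last. For U transcripts these shares were 76.7% and 61.3%. Of the 148 BROAD transcripts 2 and 3 had an equal 5′ and 3′ exon, and of the 104 WHITEHEAD transcripts 0 and 3. FT exons that differed were mostly shorter than annotated, at the 3′ end 19.8% shorter and 4.14% longer. Whether the annotation was built from the same sequences as the FT and U names was not tested.

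**Figure D3:**
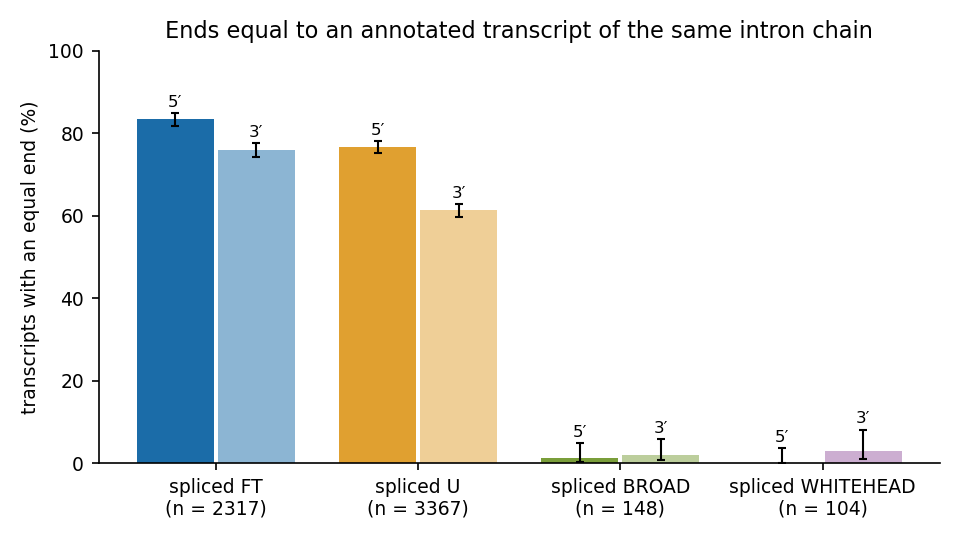
Share (%) of transcripts with at least 3 exons and an annotated intron chain whose first exon (5′, dark) or last exon (3′, light) has exactly the annotated length, by name prefix, with Wilson 95% intervals. FT shares are 83.4% and 76.0%, and those of BROAD and WHITEHEAD are all under 3%.

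The matched genes were nearly all noncoding. Among the 2076 genes matched by members with at least 3 exons, 1064 (51.3%) were annotated as lincRNA, 652 (31.4%) as antisense, 243 (11.7%) as processed transcript and 32 as transcribed from a bidirectional promoter. Members matched 1994 of 5517 annotated noncoding genes that could be matched (36.1%, 34.9 to 37.4%) and 57 of 18692 protein-coding genes (0.305%, 0.235 to 0.395%). No U transcript matched 260 of the 2076 (12.5%, 11.2 to 14.0%), and BROAD or WHITEHEAD transcripts matched 100 (4.82%, 3.98 to 5.82%). Genes without a U name had few exons, led by Gm36642 and Gm13794 with 6 and by Nrg3os, AU022754 and Gm43824 with 5.

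Of 30 widely studied noncoding genes, 11 had a spliced FT transcript. Members with at least 3 exons matched 36.1% of all annotated noncoding genes that could be matched, so the count is a description. The 11 include Airn and Hotair, matched by 2 exons, which that share does not count. Jpx, an activator of Xist, had 3 members of 3 exons on the X chromosome (100688897 to 100701764), between 345 and 3784 nt long. Pvt1, the neighbour of Myc, had 5 members with 5 to 10 exons and spans up to 340042 bp (chromosome 15, 61869541 to 62209651), and 4 of them (FT320103, FT319718, FT318474 and FT334019) started within 100 bp of each other. Firre, a repeat-rich X-linked RNA involved in nuclear organisation, had members of 5 and 7 exons (47908922 to 47988435).

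Regulators of development and imprinting were also among the 11. Airn, the imprinted RNA antisense to Igf2r, had 1 member of 2 exons spanning 74184 bp, and Nespas, antisense to Gnas, had 1 of 5 exons. Hotair, from the HoxC cluster, had 1 of 2 exons and 2006 nt. Miat had 2 members of 7 exons, Fendrr, needed for heart and body wall development, had 2 with 3 and 6 exons, Evx1os 2 with 3 and 4, and Six3os1 1 with 4. Dleu2 completes the list. The remaining 19, among them Xist, Neat1, Malat1, H19 and Meg3, had no spliced FT transcript that could be matched. The 6712 FT transcripts of 1 exon were not matched, so whether any belongs to these genes is unknown.

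Protein-coding genes were few, and their FT transcripts were often not the coding form. By either rule 85 were matched. Of the 88 members with the structure of an annotated transcript of such a gene, 39 resembled a transcript annotated as coding, 30 a processed transcript, 16 a retained-intron form and 3 a target of nonsense-mediated decay. The 39 coding ones had short frames, with a median of 87 codons (quartiles 65 and 120). Nbdy, which encodes a microprotein of mRNA decapping bodies, had 1 member of 4 exons with a frame of 68 codons, and was named after its values were seen. By the rule for exon number, Crocc2 and 5730522E02Rik had 7 exons and the bombesin receptor gene Nmbr, Phyhipl and A630010A05Rik had 6.

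Long reading frames were rare in the annotated noncoding transcripts with the structure of a spliced FT transcript. Their longest frame from ATG to stop had a median of 66 codons (quartiles 49 and 85), and 394 of 3413 (11.5%) reached 100 codons. Among transcripts matched by U names only, 482 of 2574 (18.7%) did (Fisher exact test, two-sided, adjusted p = 2.02e-14 over 5 comparisons added later), although those were shorter, with a median of 657 nt against 1258 nt. In annotated protein-coding transcripts 76.6% reached it. Only transcripts of genes annotated as noncoding were counted for FT and U, so the contrast with coding transcripts follows from that choice. Counted with 1 transcript per gene the shares were 11.9% and 20.5%.

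Polyadenylation signals were frequent at the 3′ ends. Among 2770 annotated noncoding transcripts whose 3′ exon equals that of a spliced FT transcript, 1331 (48.1%, 46.2 to 49.9%) had AATAAA in the last 40 nt, and 1738 (62.7%, 60.9 to 64.5%) had AATAAA or ATTAAA, searched on the transcript strand. Of all annotated transcripts of at least 200 nt, 34.2% had either form there. The first base of AATAAA lay a median of 21 nt before the end (quartiles 18 and 24 nt). In a window from 140 to 100 nt before the end the share with either form was 3.61% (2.98 to 4.37%).

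Ends matched by U names only had the signal less often, at 829 of 1963 (42.2%, 40.1 to 44.4%, two-sided Fisher exact p = 2.40e-44, adjusted p = 6.00e-44). With 1 transcript per gene the shares were 62.9% and 42.6%. Hotair, Airn, Pvt1 and Lhx1os had AATAAA, as printed above, and Evx1os, Firre and Platr21 had neither form. A missing match says only that these letters are not in the window.

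Among the 3133 noncoding genes matched by either rule, 12 hold 14 annotated microRNA genes on their strand. The share of hosts over all annotated noncoding genes was not computed, so the count is a description. The 10 that lay in an intron of an annotated transcript with FT structure include those of 3110039I08Rik on chromosome 9, which holds Mir100, Mirlet7a-2 and Mir125b-1 and had 3 members with up to 5 exons. Mir9-3hg on chromosome 7 had 2 members around Mir9-3, and Dleu2 holds Mir16-1. One microRNA gene (Mir6410) overlapped an exon, and 3 lay outside the matched structures. For each of the 5 microRNA genes of 3110039I08Rik, Mir9-3hg and Dleu2, 1 RefSeq mature form is given. The seed, bases 2 to 8, is in capitals. The form of Mirlet7a-2 is from the 3′ arm (3p), and the others are from the 5′ arm (5p). Forms from the other arms are not shown, and no pair of the 5 printed forms shares a seed.
mmu-miR-100-5p: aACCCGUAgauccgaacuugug
mmu-let-7a-2-3p: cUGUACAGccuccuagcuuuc
mmu-miR-125b-5p: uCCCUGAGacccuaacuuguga
mmu-miR-9-5p: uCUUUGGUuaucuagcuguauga
mmu-miR-16-5p: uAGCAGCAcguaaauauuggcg

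The title of the series concerns RNAs that run divergently from protein-coding genes. Position was read wholly from the annotation. A noncoding gene was divergent when any of its annotated starts lay up to 2000 bp from any coding start on the other strand. The starts had to point away from each other. Of the 1994 noncoding genes matched by members with at least 3 exons, 377 were divergent (18.9%, 17.2 to 20.7%), 560 antisense without divergence (28.1%, 26.2 to 30.1%), 8 overlapped a coding gene on the same strand and 1049 (52.6%, 50.4 to 54.8%) lay apart. Over all annotated noncoding genes that could be matched, 14.5% were divergent and 23.7% antisense. The divergent share depends on counting every annotated start. With only the outermost start of each gene, coding or noncoding, 9.48% of the 1994 were divergent and 37.5% antisense.

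Against genes matched by U names only, the divergent share was higher by 3.18 percentage points (18.9% against 15.7%, 200 of 1272), which did not pass after adjustment over 4 classes (two-sided Fisher exact p = 0.0211, adjusted p = 0.0845). The antisense shares were 28.1% and 27.8% (Fisher exact, adjusted p = 0.842) and the shares apart 52.6% and 56.1% (adjusted p = 0.113). With starts at most 1000 bp apart the divergent shares were 17.4% and 13.8% (Fisher exact, adjusted p = 0.0243), and with genes of 2-exon matches 19.7% and 15.5% (adjusted p = 0.000717), so the call depends on these settings.

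Divergent starts lay close to the coding start. Among 3343 annotated noncoding transcripts with the structure of a spliced FT transcript and a 5′ end within 20 nt, 610 (18.2%, 17.0 to 19.6%) had a divergent coding start, at a median of 148 bp (quartiles 86 and 342 bp). The distance was 101 to 200 bp for 186 transcripts (30.5%) and at most 50 bp for 73 (12%). Only 59 (9.67%) lay beyond 1000 bp.

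**Figure D4:**
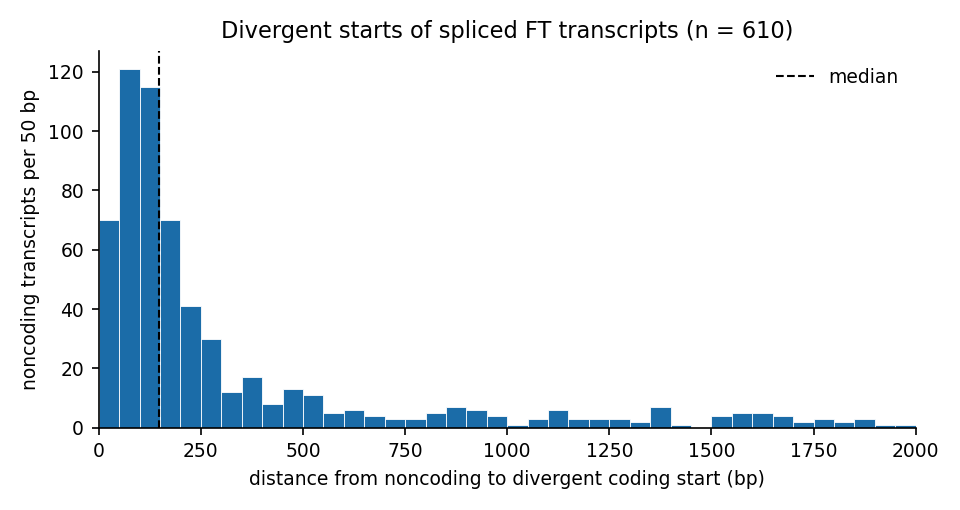
Number of noncoding transcripts matched by spliced FT transcripts per 50 bp of distance between their start and the nearest divergent protein-coding start (bp), n = 610. The dashed line marks the median of 148 bp, and every bar beyond 300 bp is lower than those nearer the coding start.

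Windows at divergent starts were also rich in CpG. Of the RefSeq windows, 1079 start within 20 nt of a noncoding start matched by a spliced FT transcript. A window was called CpG-rich when CpG reached 0.6 of the number its C and G content predicts and GC reached 50%. This held for 133 of 201 divergent starts (66.2%, 59.4 to 72.4%), 31 of 247 starts of antisense genes (12.6%, 8.98 to 17.3%) and 22 of 602 starts of genes that lie apart (3.65%, 2.43 to 5.47%). Over all 32851 windows of the table it held for 33.5%. Divergent differed from apart (two-sided Fisher exact test, adjusted p = 4.32e-75), and so did antisense (adjusted p = 7.03e-06). Groups were defined by position relative to coding genes, and divergent windows can hold coding promoter sequence. The test therefore cannot tell features of the noncoding start from those of the coding promoter. Each window was counted, with no check at 1 window per gene.

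The median ratio of observed to expected CpG was 0.75 at divergent starts, 0.29 at antisense and 0.22 at starts apart, and the median GC content was 61.3% at divergent starts and 47.3% at starts apart. GGGCGG, the GC box, occurred on either strand in 57.7% of divergent windows, 18.2% of antisense windows and 10.1% of windows apart, against 35.7% of all windows. TATAA between 40 and 15 bases before the start was present in 2 of the divergent windows, in 29 of the windows apart (4.82%) and in 3.52% of all windows. Divergent windows within 250 bp of the coding start contain sequence of the coding promoter as well. Among the 610 divergent transcripts above, the median distance to the coding start was 148 bp.

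**Figure D5:**
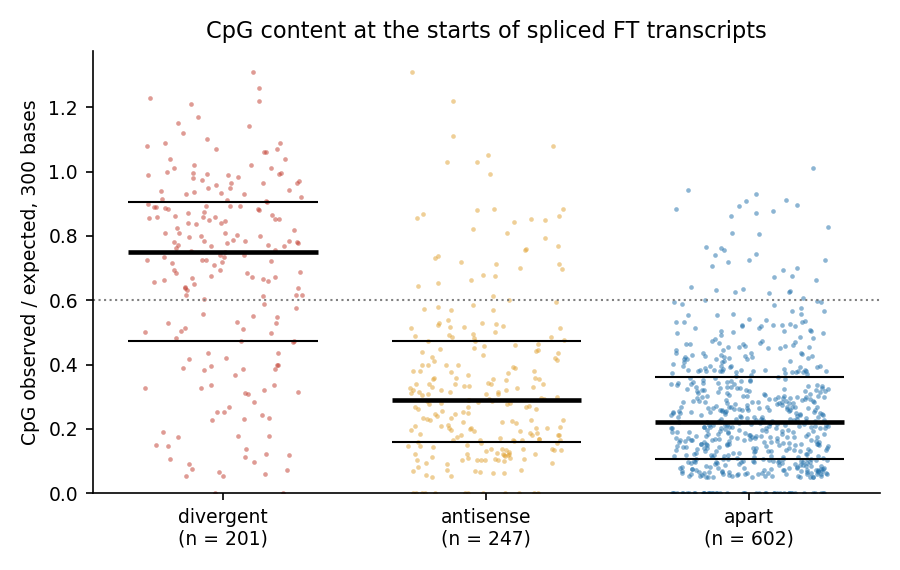
Ratio of observed to expected CpG in windows of 300 bases around starts matched by spliced FT transcripts, 1 point per window, by position relative to protein-coding genes. Lines give quartiles with the median in bold (0.75, 0.29 and 0.22), and the dotted line is at 0.6.

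A start apart from coding genes was not always poor in CpG. Jpx and Miat, which lie apart, had 27 and 25 CpG in their windows (ratios of 0.86 and 0.81), and the antisense gene Dleu2 had 29 (0.86). Divergent genes can have further starts away from the coding gene, and of 26 such windows 5 (19.2%) were CpG-rich. For Evx1os, BC006965 and E230029C05Rik the window found was of that kind, with 6, 10 and 2 CpG.

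Genes of the 3 position groups had similar shapes. Members of divergent genes had a median of 3 exons, 1237 nt and a span of 8584 bp (793 members of 616 genes), those of antisense genes 3 exons, 1373 nt and 9135 bp (1063 of 896), and those of genes apart 3 exons, 1224 nt and 9682 bp (1846 of 1611). These values were not tested.

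Regulators of lineage choice were the list with the most divergent FT partners. Of its 30 genes 7 (23.3%, 11.8 to 40.9%) had a divergent noncoding gene matched by a spliced FT transcript, against 2.77% of 21951 annotated protein-coding genes. The list was written with earlier results of these data known, so the count is a description. Distances given for genes of the lists are from the nearest annotated start, which need not be the start of an FT transcript. BC006965 starts 248 bp from the start of Sox9, which acts in cartilage and testis formation, and had 3 members of 3 to 6 exons on chromosome 11 (112525241 to 112643290). Evx1os starts 47 bp from the homeobox gene Evx1, and Lhx1os (4 exons, 599 nt) 125 bp from Lhx1, which acts in head and kidney formation.

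The other lineage partners lay farther away. Otx2os1 (5 exons over 124061 bp) starts 1064 bp from Otx2, a forebrain regulator, and Fendrr 1276 bp from Foxf1, a regulator of lung and gut mesoderm. Pax6os1 (4 exons) starts 1530 bp from the eye regulator Pax6, and Dlx6os1 (2 exons, 4442 nt) 1743 bp from Dlx6. In 4 of the 7 pairs the starts were thus more than 1000 bp apart.

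The other lists had fewer genes with such a partner. Among 25 genes of the chromatin machinery, the nearest annotated start of A930024E05Rik lies 48 bp from the demethylase gene Kdm2b. That of E230029C05Rik lies 164 bp from the polycomb gene Eed. The promoter windows found for E230029C05Rik and Evx1os were at other starts of these genes. The gene with such a partner was, among 30 pluripotency genes, Sall4 (Gm14261, 897 bp), among 39 Hox genes Hoxa2 (Hoxaas2, 843 bp) and among 25 fibroblast genes Fn1 (Apol7d, 135 bp). None of 20 housekeeping genes had one. No gene of these coding lists was itself matched by a spliced FT transcript. Members with at least 3 exons matched only 0.305% of all protein-coding genes that could be matched.

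Within the list itself, a head-to-head partner was present at 222 of the 4178 loci (5.31%, 4.67 to 6.04%), that is a locus of the other strand whose 5′ end lay at most 2000 bp upstream. The share over all loci of the list was 5.16%. Facing 3′ ends were present at 207 (4.95%, 4.34 to 5.65%), against 6.15% of all loci. The nearest partner consisted of single-exon U transcripts in 121 of the 222 cases, held a spliced FT transcript in 43 and another spliced transcript in 37.

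Spliced FT loci that faced each other did so at short range. There were 24 mutual pairs, with a median distance of 130 bp (quartiles 67.8 and 184 bp), and 18 of the 24 (75%, 55.1 to 88.0%) were at most 200 bp apart. With head-to-head partners from the whole list, the median distance of spliced FT loci was 462 bp. Mutual pairs within other name prefixes were not counted. The 7 tail-to-tail pairs of spliced FT loci had a median distance of 1038 bp. The closest pair, on chromosome 12, joined Gm17529 (60054076 to 60068998) to an unnamed transcript of 3 exons 26 bp away. On chromosome 6, 1110019D14Rik and 2610001J05Rik lay 60 bp apart with 2 and 3 members, and so did Gm43154 and Gm13848. On chromosome 7, 1700025J12Rik faced 4933432K03Rik, with up to 6 exons, at 67 bp.

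Pairs with many exons were among them. On chromosome 12, 1700008C04Rik (5 exons) and Gm40421 (6) lay 283 bp apart. On chromosome 13, 4921525O09Rik (8 exons) faced Gm48190 at 73 bp and 4930544M13Rik (7) faced 4930467J12Rik at 144 bp. On chromosome 9, Gm32511 (6 exons) faced Aqp9, the gene of a water and glycerol channel, at 132 bp.

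Members were spread over all autosomes, from 140 on chromosome 19 (2.74%) to 425 on chromosome 2 (8.31%). The X chromosome held 144 (2.82%), against 955 spliced U transcripts (5.71%). Counted as loci the shares were 2.61% (2.17 to 3.14%) and 4.64% (4.28 to 5.04%). Among matched noncoding genes they were 45 of 1994 (2.26%) and, for genes with U names only, 26 of 1272 (2.04%, two-sided Fisher exact test, adjusted p = 0.714). Unplaced sequence held 5 members (0.0978%) and 484 spliced U transcripts (2.89%).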

How the data were processed

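Polyadenylated and ribosomal-depleted RNA of V6.5 mouse embryonic stem cells gave 1 library each. The submitters' processing notes name TopHat and mm9. The deposited file is 1 BED list of 12 columns whose header names mm9. How its transcripts were made was not stated in any source used. The deposited score column holds whole numbers of unknown meaning, and positions and blocks were used as deposited by the authors.

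Blocks with gaps under 30 bp were joined. Members with at least 3 exons were matched to GENCODE M21 (GRCm38) by runs of intron, exon and intron lengths under a single gene on the same chromosome and strand, and 2-exon members by intron length and outer exons within 20 nt, a rule added after the file was seen. No coordinate was converted between builds. Noncoding comprises lincRNA, antisense, processed transcript and related biotypes. A gene with several positions was classed as divergent first, then antisense, then same-strand. RefSeq promoters and microRNAs were joined by symbol and position on GRCm38. Shares have Wilson 95% intervals, which cover counting error only. Fisher exact tests are two-sided with Benjamini-Hochberg adjustment over 4 classes, or over 5 comparisons added after the data were seen. Python 3.11.15, NumPy 2.4.6 and SciPy 1.17.1 were used.

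Members and gene lists were chosen with earlier results of these data known. A result of the chromatin list is not reported here. Named genes were those with the most members, exons or span, members of the lists and their divergent partners, the closest or most exon-rich head-to-head pairs, microRNA hosts and genes without a U name. On simulated data 98.8% of 3000 moved transcripts with at least 3 exons and 96.5% of 2000 with 2 exons were matched to their own gene. With new exon and intron lengths 0% and 0.05% matched any gene. Alternatives were other joining gaps, 1 transcript per locus, autosomes and X only, whole intron chains, other distances, other start and comparison genes and a score minimum.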

Additional observations from a re-analysis of the deposited data

How the results depend on the processing

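No paired analysis was possible because the list has no sample column and each group has 1 library. Joining blocks under 10 bp or 70 bp and leaving out Y and unplaced sequence kept the number, length and exon number of spliced FT transcripts within their intervals or within 1.5 times. With 1 transcript per locus the median length was 1339 nt and 54.2% had at least 3 exons. The share of introns also in U transcripts was 79.8% with blocks joined under 10 bp, and that of whole chains 62.2%. Whole chains matched the annotation in 81.3%. Loci with a head-to-head partner numbered 113 within 500 bp and 48 with partners from spliced FT loci only, both by construction, and 153 among the 2860 loci formed by members scoring 1000. The divergent share of genes with FT names exceeded that of the others by 3.26 percentage points within 500 bp (two-sided Fisher exact, adjusted p = 0.0452), 3.59 within 1000 bp (adjusted p = 0.0243), 4.12 with 2-exon matches, added after the data were seen (adjusted p = 0.000717), and 6.84 against all other annotated noncoding genes (adjusted p = 1.19e-11). With the outermost start of each gene the excess was 1.85 points (9.48% against 7.63%, Fisher exact, adjusted p = 0.151). For antisense genes the difference of 0.333 points became 6.85 against all other genes (Fisher exact, adjusted p = 1.16e-08) and -0.804 with 2-exon matches (adjusted p = 0.55). The cause was not tested. The list has no read counts, so depth limits cannot be given.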
